A study of Mus musculus with 11 samples.

Results

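The actin cytoskeleton and motility genes examined here are 10 transcripts matched by symbol among the 31053 genes of the deposited matrices, namely Actb, Actg1, Tmsb4x, Tmsb10, Pfn1, Cfl1, Flna, Msn, Ezr and Vim. All 10 passed the low-count filter in every test, which for the comparisons over time kept 14821 genes. They were measured by Visium, an assay that captures polyadenylated RNA from a tissue section on an array of barcoded positions (spots), each broad enough to cover several cells, in 11 snap-frozen sections of mouse liver. Uninjured liver (0 h) gave 3 sections, numbered 002, 003 and 004. After injury with paracetamol (acetaminophen, APAP) there were 2 lettered sections for 24 h, as many for 36 h, and 4 for 48 h. The labels mark the former Uninjured and the latter POD and give neither strain, sex, age nor dose for a section. The study's methods describe adult mice, male unless stated otherwise, with C57BL/6JCrl as the wild-type strain, fasted and then injected intraperitoneally with APAP. For this assay they count 1 mouse at each time. Here n counts sections, each p covers only the spread between sections, and mouse and time cannot be told apart. No genetic change is given for any of these groups.

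Actin exists as monomers and filaments, and a cell moves or changes shape by building filaments at an advancing edge and dismantling them behind it. Thymosins hold monomers in reserve, profilin delivers them to growing ends, and cofilin severs old filaments. Filamin crosslinks filaments into a network, ezrin and moesin tie the network to the plasma membrane, and vimentin forms separate intermediate filaments that are typical of mesenchymal and myeloid cells rather than of resting hepatocytes. In healthy liver much of the hepatocyte's actin lies around the bile canaliculi, while sinusoidal, stellate and immune cells hold their own.

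The passing spots of a section held 31292663 to 67045372 unique molecular identifiers (UMIs) in 1490 to 3466 spots. Levels are given as CPM, the share of a section's UMIs scaled to a common total, after TMM scaling, which centres the bulk of genes. They are compared for each gene with itself and not between genes. Of the 6 hepatocyte markers, none was at 0 in any section and their sum was 109740.0 to 114740.0 CPM at 0 h, so the defining markers of the labelled tissue were present. With total-count scaling in place of TMM the median gene stood 0.37, 0.49 and 0.54 above 0 h on the log2 scale at 24, 36 and 48 h, against 0.05, 0.05 and 0.01 with TMM, so changes are stated relative to the TMM centre. The share of calls that were higher than at 0 h was 55.4%, 57.5% and 52.7% with TMM and 80.4%, 94.1% and 93.7% with total counts. Section 36 h A lay below 36 h B in all 10 genes, by a factor of 1.55 for Actb to 3.52 for Vim, and its mitochondrial share of UMIs was 1.80% against 4.53%.

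Sequence upstream of the start site was read for 9 of the 10 genes, all but Actb, from RefSeq promoter entries on GRCm38.p6. Among these 9, Actg1 has a CArG box, the site bound by serum response factor (SRF), the actin-responsive transcription factor, and it was found on searching both strands of the 250 bases upstream of each start. The same search found a CArG box in 482 of 32851 promoters (1.47%). The letters GGAATG, the core bound by TEAD factors, which work with YAP, were found upstream of the RefSeq starts of Pfn1 and Flna and in 4153 of the 32851 promoters (12.6%). Each match is shown in capitals with 25 bases on either side, written 5′ to 3′ along the gene's strand, and whether either regulator acts on these genes was not tested.
Actg1: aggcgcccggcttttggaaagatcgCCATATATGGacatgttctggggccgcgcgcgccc
Pfn1: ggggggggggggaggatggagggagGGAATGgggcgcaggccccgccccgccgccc
Flna: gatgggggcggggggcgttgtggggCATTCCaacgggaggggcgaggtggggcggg
The Actg1 window spans chr11:120348551-120348610 on the minus strand and its match begins 90 bases upstream of the start. The Pfn1 window spans chr11:70654672-70654727 on the minus strand with its match beginning 52 bases upstream. In Flna, chrX:74246650-74246705 on the minus strand, the match lies on the opposite strand, so that it reads CATTCC. It begins 146 bases upstream of the RefSeq start at 74246534. That start and the window lie inside the gene as annotated, 74223461 to 74249820, and not upstream of its outer end. For Tmsb4x, Tmsb10, Cfl1, Msn, Ezr and Vim neither pattern was in the window, which says only that these letters are not in it. A match is a description of the sequence and not of binding.

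Against uninjured liver, 8 of the 10 genes were called higher at 24 h, 7 at 36 h and 9 at 48 h, and none was called lower. A gene was called at an adjusted p under 0.05 in edgeR's quasi-likelihood test with Benjamini-Hochberg adjustment over all 14821 genes. By the same rule 23.1%, 16.8% and 23.3% of all genes tested were called higher at these times. The median log2 fold change of the 10 genes was 1.27, 1.05 and 1.36. Total-count scaling gave 8, 9 and 10 calls, and fits to only the groups compared gave 9, 7 and 10. Every section at 24 h lay above every uninjured section for 9 of the genes, at 36 h for 8 and at 48 h for all 10, against 37.0%, 29.8% and 27.9% of all genes tested. Over the 3 injured times together this held for 8, all but Tmsb4x and Pfn1, against 15.7% of all genes tested. Because the spots mix cells, fewer or more cells of a type and less or more RNA per cell cannot be told apart.

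**Figure D1:**
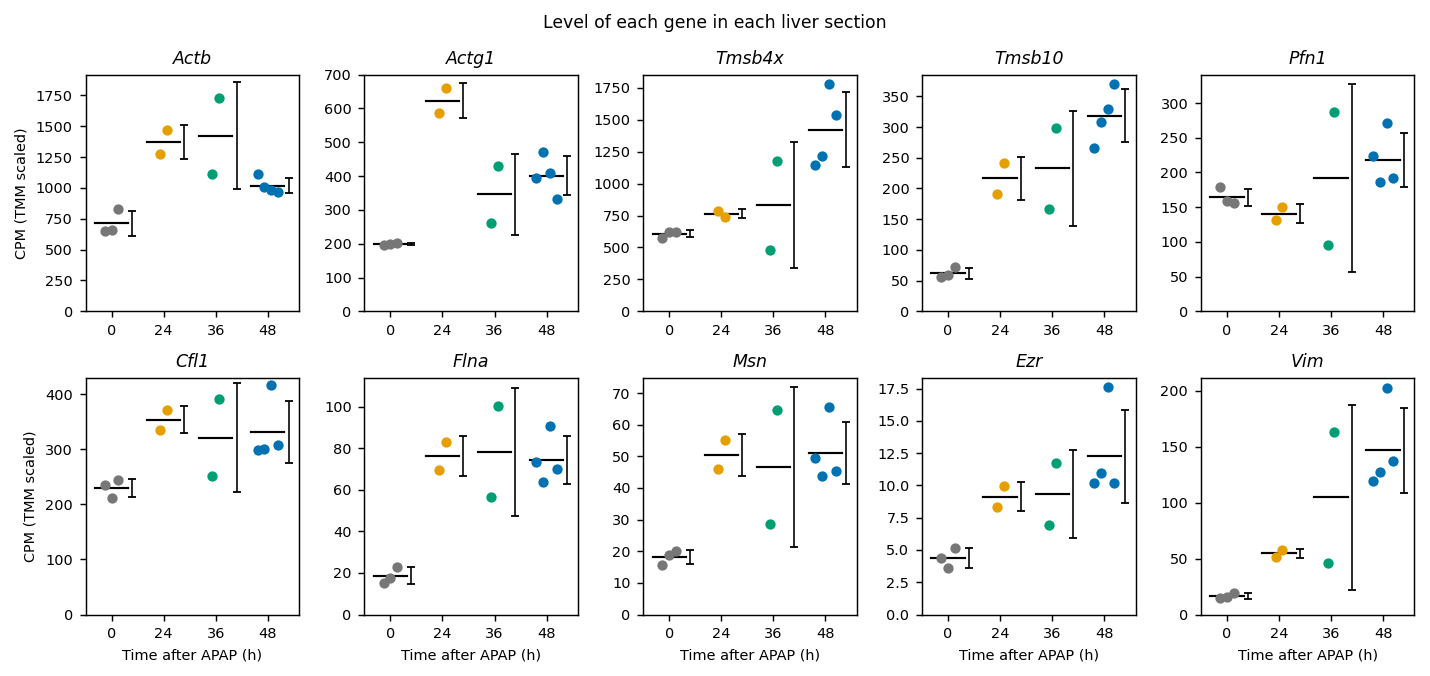
Each panel plots a gene's TMM-scaled CPM, from 0, against the hours after APAP, with a point per section, a black line at the mean and a bar of 1 SD beside it. The 4 sections at 48 h lie between 119.8 and 202 CPM for Vim, above all 3 uninjured sections, while Pfn1 sections at 24 h lie below them.

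The actins themselves differed in their course. Actb (ENSMUSG00000029580; chromosome 5, 142903115 to 142906754, minus strand, on GRCm38 as are all positions below) encodes beta-actin, the main cytoplasmic actin. The Actb level was 654, 658 and 828 CPM in uninjured sections 002, 003 and 004. At 24 h it was 1276 and 1473 CPM and at 36 h 1115 and 1729.6 CPM, in A and B each. Sections A to D at 48 h read 1110.0, 1006, 987 and 969.8 CPM. All injured sections lay above all uninjured ones. Its rise was nearly 2-fold by 24 h, a log2 fold change of 0.95 ± 0.18 (adjusted p = 0.00202), and remained so in the 36 h sections, 0.996 ± 0.18 (adjusted p = 0.00331). At 48 h it was smaller (0.51 ± 0.15, adjusted p = 0.0202). The 48 h call was lost without 0 h 002 or 0 h 003 (adjusted p up to 0.0770). The fitted change from 24 h to 48 h was -0.43 ± 0.17 (adjusted p = 0.0713), so the lower mean at 48 h did not pass the test. Actg1 (ENSMUSG00000062825; chromosome 11, 120345690 to 120348542, minus strand) encodes gamma-actin, the second cytoplasmic isoform. Uninjured liver held Actg1 at 195, 198 and 201 CPM. The 24 h sections gave 586 and 661 CPM and those of 36 h 262 and 430.0 CPM. By 48 h the 4 sections stood at 394, 471, 409 and 332 CPM. The uninjured sections were tightly grouped, the injured sections did not overlap them, and the 24 h sections were the highest of all. It rose 3.15-fold by 24 h, 1.66 ± 0.19 (adjusted p = 0.000138) on the log2 scale, and was still higher than at 0 h at 36 h (0.81 ± 0.19, adjusted p = 0.0121) and 48 h (1.02 ± 0.17, adjusted p = 0.000826). Without 36 h B the 36 h change was 0.40 and not called (adjusted p = 0.123). Actg1 fell by 0.85 on the log2 scale from 24 h to 36 h (adjusted p = 0.0274) and by 0.64 from 24 h to 48 h (adjusted p = 0.0216). The former call was lost without either 24 h section or 36 h A. The latter was lost without either 24 h section. Their adjusted p reached 0.108 and 0.134. The latter call was also lost under total-count scaling (adjusted p = 0.0775).

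The beta-thymosins, which bind actin monomers and keep them from polymerising, rose late or throughout. Tmsb10 (ENSMUSG00000079523; chromosome 6, 72957347 to 72958748, minus strand) was already higher at 24 h. In the 3 uninjured sections Tmsb10 stood at 55.3, 58.9 and 72.4 CPM. After APAP it reached 191 and 241 CPM in the 24 h pair and 166 and 299 CPM in the 36 h pair. Levels of 266, 309, 329 and 369.6 CPM were found in the 48 h sections. The lowest injured section, 36 h A, lay well above the highest uninjured section. The log2 fold change was 1.80 ± 0.23 (adjusted p = 0.000233) at 24 h, 1.90 ± 0.23 (adjusted p = 0.000588) at 36 h and 2.36 ± 0.21 (adjusted p = 3.48e-05) at 48 h, the last a 5.12-fold rise. Its transcript end is shared in part with other genes, 279 of 451 stretches of 50 bases (61.9%) with 5 other annotated genes, so its count carries that uncertainty, as does that of Actb to a lesser degree (42 of 451, 9.31%, with 1 other gene). Tmsb4x (ENSMUSG00000049775; chromosome X, 167207093 to 167209315, minus strand), the more widely studied thymosin of moving cells, behaved otherwise. The Tmsb4x level was 578, 621 and 624 CPM in uninjured sections 002, 003 and 004. At 24 h it was 789 and 741 CPM and at 36 h 483 and 1179.5 CPM, in A and B each. Sections A to D at 48 h read 1149, 1218, 1782 and 1535 CPM. At 36 h section A lay below all uninjured sections and section B far above them, and the call against 0 h was reached at 48 h (log2 fold change 1.23 ± 0.26, adjusted p = 0.00396). The values at 24 h (0.33 ± 0.30, adjusted p = 0.410) and 36 h (0.45 ± 0.30, adjusted p = 0.280) did not pass the test, though with only the 0 h and 24 h sections in the fit the former was 0.30 and called (adjusted p = 0.0325). At 36 h the change was -0.33 without section B and 0.95 without section A, where it was called (adjusted p = 0.00677). From 24 h to 48 h Tmsb4x rose by 0.89 ± 0.30 (adjusted p = 0.0423), a call lost on leaving out any of 8 sections (0 h 002, 003 or 004, 24 h A or B, or 48 h B, C or D), with adjusted p up to 0.176.

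The factors that turn filaments over showed small or uneven changes. Cfl1 (ENSMUSG00000056201; chromosome 19, 5490455 to 5495201, plus strand) encodes cofilin 1, which severs and depolymerises filaments. Uninjured liver held Cfl1 at 234, 212 and 243 CPM. The 24 h sections gave 336 and 371 CPM and those of 36 h 251 and 390.4 CPM. By 48 h the 4 sections stood at 299, 300.0, 416 and 308 CPM. No injured section overlapped the uninjured ones, yet the steps were small, 0.62 ± 0.20 (adjusted p = 0.0259) at 24 h, 0.48 ± 0.20 (adjusted p = 0.0865) at 36 h and 0.53 ± 0.17 (adjusted p = 0.0257) at 48 h, of which the first and last were called. The 24 h call was lost on leaving out any section of either group (adjusted p up to 0.134) and the 48 h call without 0 h 002, 0 h 003, 0 h 004 or 48 h C (up to 0.0966), whereas the 36 h change was called without 36 h A (log2 fold change 0.76, adjusted p = 0.0118). Pfn1 (ENSMUSG00000018293; chromosome 11, 70651850 to 70654644, minus strand) encodes profilin 1, which exchanges the nucleotide of actin monomers and feeds them to filament ends. In the 3 uninjured sections Pfn1 stood at 179, 159 and 156 CPM. After APAP it reached 131 and 150.3 CPM in the 24 h pair and 96.0 and 288 CPM in the 36 h pair. Levels of 223, 187, 271 and 193 CPM were found in the 48 h sections. Both 24 h sections were below the uninjured range, the 36 h sections fell on either side of it, and the 48 h sections were above it. In edgeR's test 0 of its 3 changes against 0 h passed, with -0.23 ± 0.35 (adjusted p = 0.640), 0.22 ± 0.35 (adjusted p = 0.661) and 0.41 ± 0.30 (adjusted p = 0.286). Scaling set the sign at 24 h, where total counts gave 0.10, and the call at 48 h, where total counts gave 0.94 (adjusted p = 0.0163). At 36 h Pfn1 was lower than at 0 h without section B (-0.78, adjusted p = 0.0353) and higher without section A (0.80, adjusted p = 0.0114). The 48 h change was called without 36 h A or 36 h B, neither of which is in that comparison other than through the shared spread (adjusted p as low as 0.0286).

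The crosslinker and the membrane linkers rose early and stayed up. Flna (ENSMUSG00000031328; chromosome X, 74223461 to 74249820, minus strand) encodes filamin A, which joins filaments into orthogonal networks and anchors receptors to them. The Flna level was 15.1, 17.8 and 23.1 CPM in uninjured sections 002, 003 and 004. At 24 h it was 69.6 and 83.3 CPM and at 36 h 56.5 and 100.2 CPM, in A and B each. Sections A to D at 48 h read 73.4, 63.8, 90.7 and 69.9 CPM. It was about 4-fold higher at all 3 times, with log2 fold changes of 2.04 ± 0.25 (adjusted p = 0.000179), 2.07 ± 0.25 (adjusted p = 0.000573) and 1.997 ± 0.22 (adjusted p = 0.000101). Msn (ENSMUSG00000031207; chromosome X, 96096042 to 96168552, plus strand) encodes moesin, the ERM protein of endothelial and blood cells. Uninjured liver held Msn at 15.8, 18.8 and 20.1 CPM. The 24 h sections gave 45.8 and 55.2 CPM and those of 36 h 28.7 and 64.6 CPM. By 48 h the 4 sections stood at 49.4, 43.9, 65.4 and 45.4 CPM. Its log2 fold changes were 1.47 ± 0.29 (adjusted p = 0.00266), 1.36 ± 0.29 (adjusted p = 0.00751) and 1.49 ± 0.26 (adjusted p = 0.00114), and without 36 h B the 36 h value was 0.66 and not called (adjusted p = 0.0698). Ezr (ENSMUSG00000052397; chromosome 17, 6738041 to 6782784, minus strand) encodes ezrin, the ERM protein of epithelia and, in liver, of bile ducts. In the 3 uninjured sections Ezr stood at 4.36, 3.63 and 5.17 CPM. After APAP it reached 8.32 and 9.92 CPM in the 24 h pair and 6.95 and 11.7 CPM in the 36 h pair. Levels of 10.2, 10.99, 17.6 and 10.2 CPM were found in the 48 h sections. In every injured section it was above the uninjured range. It rose by 1.06 ± 0.29 (adjusted p = 0.0132), 1.10 ± 0.29 (adjusted p = 0.0177) and 1.49 ± 0.25 (adjusted p = 0.000926) on the log2 scale. The 24 h call was lost without 0 h 003 or 24 h B (adjusted p up to 0.0853) and the 36 h call without 0 h 002, 0 h 003 or 36 h B (up to 0.183). The third ERM gene, radixin, is described with the wider pathway.

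Vim (ENSMUSG00000026728; chromosome 2, 13573927 to 13582826, plus strand), the vimentin gene, had the largest change of the 10 at 36 h and 48 h. The Vim level was 14.8, 15.3 and 19.6 CPM in uninjured sections 002, 003 and 004. At 24 h it was 51.6 and 57.7 CPM and at 36 h 46.3 and 163 CPM, in A and B each. Sections A to D at 48 h read 119.8, 128, 202 and 137 CPM. The uninjured sections were the lowest of all, the 24 h sections were close to each other, and at 36 h section B was 3.52 times section A. Its log2 fold change was 1.72 ± 0.42 (adjusted p = 0.00802) at 24 h, 2.66 ± 0.42 (adjusted p = 0.00215) at 36 h and 3.15 ± 0.39 (adjusted p = 0.000219) at 48 h, the last an 8.87-fold rise. From 24 h to 48 h it rose by 1.42 ± 0.42 (adjusted p = 0.0262). That call was lost without either 24 h section or without 48 h C (adjusted p up to 0.150) and narrowly with no low-count filter (adjusted p = 0.0504). The 36 h change without section B was 1.49 and still called.

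Between injured times the calls among the 10 genes were no more frequent than among all genes tested. From 24 h to 36 h Actg1 alone was called, against 15.6% of all genes tested, and from 36 h to 48 h none was, against 3.05% of all genes tested in edgeR's test. DESeq2 also called 0 of the 10 between 36 h and 48 h, and at an unadjusted p under 0.05 edgeR had 2, Actb at -0.48 and Tmsb4x at 0.77 on the log2 scale. From 24 h to 48 h Actg1 was lower and Tmsb4x and Vim higher, against 34.1% of all genes tested in either direction. In order of mean level Tmsb4x, Tmsb10, Ezr and Vim ran from 0 h through 24 h and 36 h to 48 h, and Pfn1 from 24 h through 0 h and 36 h to 48 h. Actb and Flna were highest on average at 36 h, Actg1 and Cfl1 at 24 h and Msn at 48 h. Among neighbours in these orders, the step out of 0 h passed the test for Actb, Actg1, Tmsb10, Flna, Msn, Ezr and Vim, and the step from 48 h to 24 h for Actg1, while the other neighbouring pairs did not pass the adjusted threshold, among them pairs whose sections do not overlap, such as Tmsb4x at 0 h and 24 h, Cfl1 at 0 h and 36 h, and Actb at 48 h and 24 h.

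Markers of other cell types changed as well, but the lists differed in when and in which direction they did. Of the 4 neutrophil markers all 4 were called higher at each time, and their summed level went from 1.98 to 7.86 CPM at 0 h to 38.4 to 136 at 24 h, 20.9 to 60.3 at 36 h and 29.7 to 105 at 48 h. Of the 7 mesenchymal markers 3, 6 and 6 were higher at the successive times and 1, 1 and 0 lower, with sums of 249.6 to 286, 198 to 245, 229 to 566 and 674 to 1469 CPM in order of time. The 4 mononuclear phagocyte markers summed to 409 to 434, 553 to 595, 448 to 622 and 722 to 1326 CPM in order of time, with 1, 1 and 3 called higher at the 3 injured times. The 7 endothelial markers, of which 1 was called lower at each time, summed to 247 to 283, 210 to 228, 202 to 325 and 206 to 264 CPM in order of time. The 7 leucocyte markers summed to 269 to 289, 345 to 353, 259 to 365 and 476 to 1003 CPM in order of time. At 24 h 0 of them were called higher and 1 lower, and at 36 h and 48 h 2 were called higher. The 4 cholangiocyte markers, which include keratins that stressed hepatocytes can also make, went from 235 to 293 CPM at 0 h to 977 to 1141 CPM at 24 h. Of these 1 was called higher at each time and 1 lower at 24 h and 36 h. In 48 h D that sum was 325 CPM. No marker of these lists was at 0 in any section. The 6 hepatocyte markers summed to 82675 to 95576, 81792 to 99057 and 72882 to 89344 CPM at the injured times, all below the uninjured sections after TMM scaling, with 4, 2 and 4 called lower and 1 higher at each time. Without TMM, as CPM of the plain UMI total, injured and uninjured sections were not separated. These sums were 88321 to 90829 at 0 h, 83584 and 93931 at 24 h, and 90232.5 and 104141 at 36 h. In 48 h A to D they were 94401, 101811, 85002 and 88239. The part of these shifts in the changes of the 10 genes was not tested beyond the sets of spots described next.

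To bring the pooled markers closer to one level, the comparison was repeated in marker-poor spots, those whose share of UMIs in a pooled list of 32 non-hepatocyte markers was at most 0.0745%, the mean of the medians of the uninjured sections. In them the pooled sum was 541 to 561 CPM of the plain total in uninjured sections and 550.5 to 639.6 CPM in injured ones, but single lists still differed. The neutrophil sum was 1.16 to 2.76 against 9.15 to 34.3 CPM and the cholangiocyte sum 192 to 236 against 469 to 855 CPM. The mesenchymal sum was 131 to 149.6 CPM in uninjured sections and 235 and 247 CPM in 48 h A and B. In these spots 7 of the 10 genes were called higher at 24 h (19.7% of 12746 genes tested), 5 at 36 h (9.59%) and 2 at 48 h (5.68%). Only 48 h A and 48 h B had the required 50 such spots at 48 h, whereas 48 h C had 26 and 48 h D 14. Flna and Tmsb10 were called at every time. Flna rose from 13.9 ± 2.51 CPM (SD, n = 3) to 46.0 ± 3.27 (n = 2) at 24 h, 44.1 ± 11.5 (n = 2) at 36 h and 32.9 ± 2.55 (n = 2) at 48 h, with log2 fold changes of 1.73 ± 0.18 (adjusted p = 0.000105), 1.64 ± 0.18 (adjusted p = 0.000774) and 1.25 ± 0.19 (adjusted p = 0.00403). Tmsb10 likewise rose from 47.6 ± 6.92 CPM to 129 ± 3.30, 116 ± 36.9 and 88.4 ± 8.43, by 1.44 ± 0.18 (adjusted p = 0.000295), 1.28 ± 0.19 (adjusted p = 0.00240) and 0.89 ± 0.19 (adjusted p = 0.0173).

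The other members were called at fewer times in marker-poor spots. Actb and Msn were called at 24 h and 36 h, by 0.76 ± 0.15 (adjusted p = 0.00259) and 0.67 ± 0.15 (adjusted p = 0.0127) for Actb and by 1.02 ± 0.17 (adjusted p = 0.00135) and 0.82 ± 0.18 (adjusted p = 0.0144) for Msn, and at 48 h their values were 0.11 ± 0.15 (adjusted p = 0.672) and 0.58 ± 0.19 (adjusted p = 0.0760). Actg1, Cfl1 and Ezr were called at 24 h alone, where Actg1 rose by 1.16 ± 0.18 (adjusted p = 0.000956), Cfl1 by 0.41 ± 0.13 (adjusted p = 0.0359) and Ezr by 0.73 ± 0.23 (adjusted p = 0.0316). Vim was called at 36 h, by 1.65 ± 0.40 (adjusted p = 0.0311), its values at 24 h and 48 h being 0.93 ± 0.39 (adjusted p = 0.103) and 1.58 ± 0.40 (adjusted p = 0.0501). Tmsb4x and Pfn1 were called at no time, and at 48 h, where the whole sections had shown Tmsb4x higher, its value was 0.08 ± 0.19 (adjusted p = 0.832). The section levels of Tmsb4x in these spots were 439 ± 10.1 CPM at 0 h (SD, n = 3) and 465 ± 17.0 CPM at 48 h (n = 2). The difference between whole sections and marker-poor spots was not itself tested, and the 48 h count was 5 with total-count scaling and 0 with the 25th percentile as the limit.

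**Figure D2:**
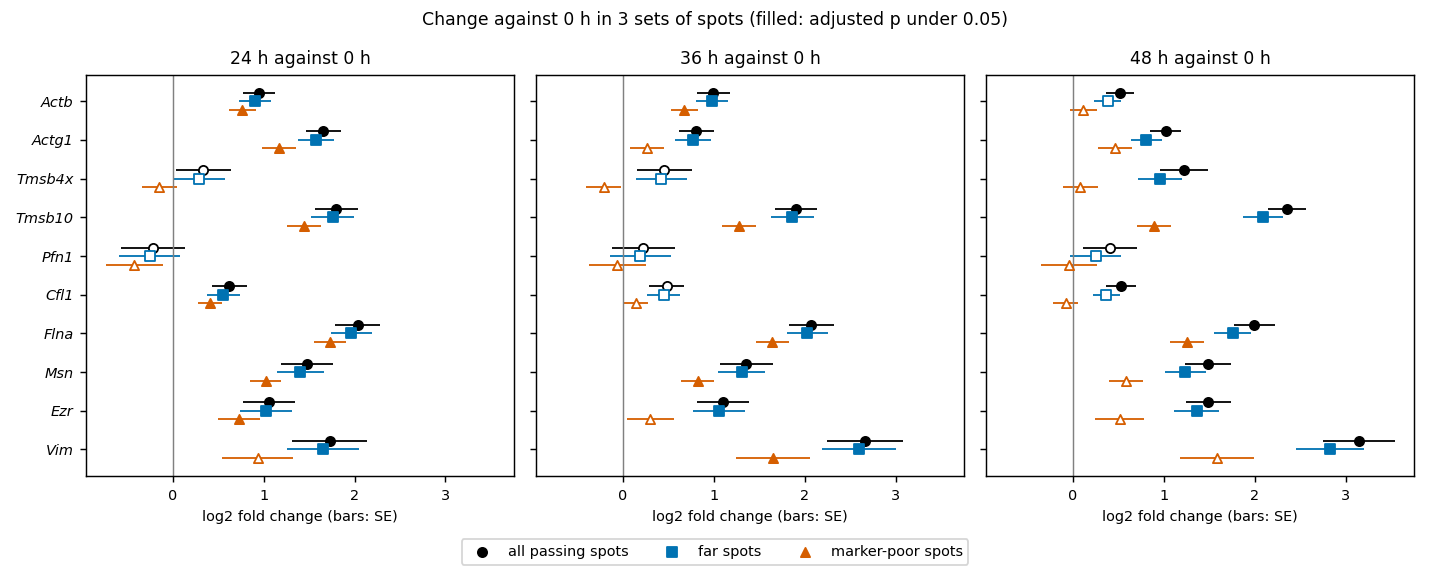
Points give the log2 fold change of each gene against 0 h with its SE, in all passing spots (black circles), spots at least 3 steps from a hepatocyte-low spot (blue squares) and marker-poor spots (orange triangles), and filled points have an adjusted p under 0.05. Flna and Tmsb10 are filled in all 3 sets at 24, 36 and 48 h, and Pfn1 in none.

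Within injured sections the genes were compared by position. A spot was named hepatocyte-low when its score for the 6 hepatocyte markers, at 2000 UMIs per spot, was below the 1st percentile of uninjured spots. Spots touching such a spot make up ring 1. Far spots lie 3 or more steps off. Hepatocyte-low spots were scarce early, with 22 in 24 h A and 28 to 167 in the 48 h sections. Sections 24 h B, 36 h A and 36 h B had fewer than the 20 required, so 5 sections gave a value for hepatocyte-low spots and 8 for ring 1. Such spots were 22 of 2521 in 24 h A and 11 of 1648 in 24 h B. They were 11 of 1970 in 36 h A and 8 of 2035 in 36 h B. Uninjured sections 002, 003 and 004 held 21 of 1937, 45 of 2690 and 13 of 2329. The share at 24 h and 36 h was thus within or below the uninjured range, so the classes need not mark lesions at those times. The spots behind these shares were unlike, however. In 2 uninjured sections their hepatocyte markers summed to 88885 to 93462 CPM of the plain total, against 88672 to 90793 in far spots. In the 5 injured sections, 24 h A included, the sum was 40926 to 54893 CPM. The pooled markers there summed to 2254 to 14256 CPM, against 819 to 871 in the uninjured class. All 10 genes were called higher in hepatocyte-low than in far spots with the section as a block, where 30.3% of 12533 genes tested were. All 10 were also called higher in ring 1, against 21.4% of genes tested. The median log2 difference of the 10 genes was 1.30 in hepatocyte-low spots and 0.57 in ring 1, that of all genes tested 0.01 in both.

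Vim showed the widest contrast. Its levels in hepatocyte-low and far spots were 127 against 58.9 CPM in 24 h A, 465 against 111 in 48 h A, 507 against 141 in 48 h B, 577 against 179 in 48 h C and 506 against 144 in 48 h D. Hepatocyte-low spots were higher in all 5 sections, by 1.78 ± 0.07 (adjusted p = 2.45e-22) on the log2 scale. In ring 1 it was higher in all 8 sections, by 0.44 to 1.05 in single sections and 0.84 ± 0.06 (adjusted p = 7.93e-14) in the fit. Tmsb4x, called in whole sections at 48 h, stood at 1604 against 919 CPM in 24 h A, 3922 against 1124 in 48 h A, 4079 against 1401 in 48 h B, 4790.4 against 1691 in 48 h C and 5295 against 1569 in 48 h D. The difference was 1.47 ± 0.09 (adjusted p = 1.87e-13), and 0.61 ± 0.08 (adjusted p = 5e-07) in ring 1. Tmsb10 differed by 1.51 ± 0.07 (adjusted p = 4.84e-20) in hepatocyte-low spots and 0.69 ± 0.06 (adjusted p = 1.16e-11) in ring 1, with all sections in that direction. Pfn1, which did not pass the test against 0 h, was placed in the same way, at 157 against 157 CPM in 24 h A, 503 against 236 in 48 h A, 355 against 225 in 48 h B, 524 against 295 in 48 h C and 431 against 212 in 48 h D. Only in 24 h A were its levels alike in both classes. The difference over sections was 0.79 ± 0.08 (adjusted p = 1.33e-10) and that of ring 1 0.37 ± 0.07 (adjusted p = 2.15e-05), with 7 of 8 sections above 0.

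The remaining genes were placed alike. Msn was 1.48 ± 0.09 (adjusted p = 2.82e-15) higher in hepatocyte-low spots on the log2 scale, Flna 1.40 ± 0.08 (adjusted p = 5.6e-19), Ezr 1.19 ± 0.13 (adjusted p = 3.51e-10) and Actg1 1.19 ± 0.07 (adjusted p = 6.81e-18), and Cfl1 and Actb differed less, by 0.95 ± 0.07 (adjusted p = 1.06e-15) and 0.77 ± 0.07 (adjusted p = 2.01e-12). In ring 1 the values were 0.61 ± 0.07 (adjusted p = 3.35e-08) for Msn, 0.57 ± 0.06 (adjusted p = 8.21e-10) for Flna, 0.56 ± 0.06 (adjusted p = 3.85e-10) for Actg1, 0.39 ± 0.05 (adjusted p = 2.21e-07) for Cfl1 and 0.37 ± 0.06 (adjusted p = 2.43e-06) for Actb, each higher in 8 of 8 sections. Ezr, at 0.45 ± 0.10 (adjusted p = 0.000254), was higher in 6 of 8. The pooled non-hepatocyte markers moved with position too, from 981 to 2757 CPM of the plain total in far spots to 1361 to 6407 in ring 1 and 2254 to 14256 in hepatocyte-low spots, and their part in these differences was not tested. Total-count scaling placed the median gene 0.51 higher in hepatocyte-low spots, and all 10 genes were called under it as well. The difference between hepatocyte-low and far spots was larger at 48 h than at 24 h for 7 genes, against 0.814% of all genes tested, but 24 h rests on section A alone, which is taken to vary like the other sections, so the test holds no spread at 24 h. For ring 1 the like test, added after seeing the data, called Tmsb10 alone (0.46 ± 0.10, adjusted p = 0.00643), against 0.678% of all genes tested.

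By distance at 48 h, levels of the plotted genes were highest in hepatocyte-low spots, were lower over the next 2 steps and reached their minimum at step 3. At 48 h Actb averaged 2683 CPM of the plain total at step 0, 1623 at step 1, 926 at step 3 and 1123 at 6 or more steps. For Tmsb10 the same positions gave 1277, 605, 232 and 318 CPM, and for Vim 646, 272, 109 and 134 CPM. From step 3 outward the mean was thus somewhat higher again, and this later part of the curve was not tested. At 24 h the curves were flatter, with Tmsb10 at 472 CPM at step 0 (1 section), 316 at step 1 and 182 at step 3. In uninjured sections steps 1 and 3 gave 69.7 and 49.6 CPM for Tmsb10, 606 and 583 for Actb and 15.2 and 11.9 for Vim. There Cfl1, Flna and Msn were instead higher at step 3 than at step 1. The part of such uninjured slopes in the injured curves was not tested, and the uninjured curves start from spots whose summed hepatocyte markers were not reduced.

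**Figure D3:**
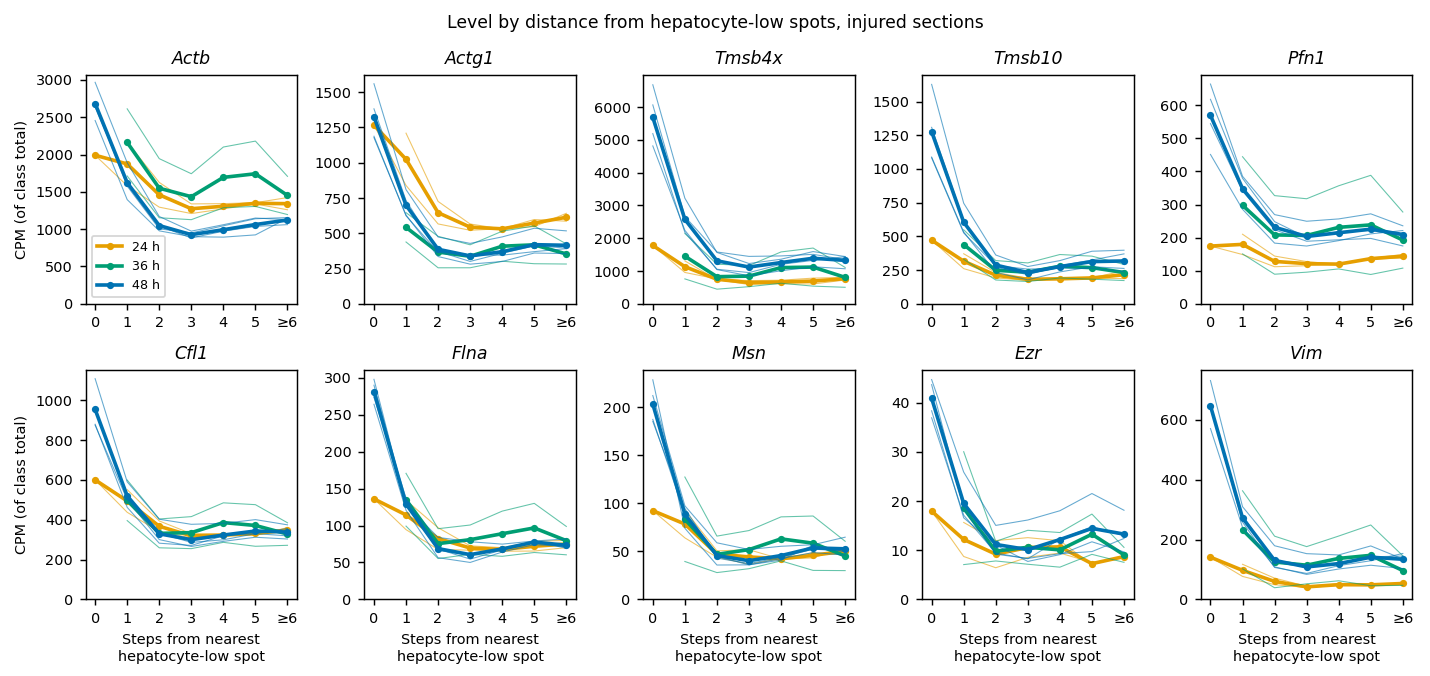
Each panel plots the CPM of a gene, of the plain UMI total, against steps on the spot grid from the nearest hepatocyte-low spot, with thin lines for injured sections and thick lines for the mean at 24 h (orange), 36 h (green) and 48 h (blue). At 48 h Vim falls from 646 CPM at step 0 to 130.4 CPM at step 2, and step 0 has no value at 36 h.

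The rise against 0 h was also present away from the hepatocyte-low spots. At 24 h, however, far spots were most of each section, 2161 of 2521 in A and 1530 of 1648 in B. At 36 h they were 1787 of 1970 in A and 1887 of 2035 in B. The fits at those times thus largely repeat those of whole sections and do not set tissue away from lesions apart. In far spots alone, a comparison chosen after seeing the data, 8 genes were called higher at 24 h, 7 at 36 h and 7 at 48 h, against 21.2%, 16.2% and 20% of 14514 genes tested. Flna rose there by 1.96 ± 0.23 (adjusted p = 0.000114) at 24 h and 1.76 ± 0.20 (adjusted p = 0.000132) at 48 h, Tmsb10 by 1.76 ± 0.24 (adjusted p = 0.000282) and 2.09 ± 0.22 (adjusted p = 7.45e-05), and Vim by 1.65 ± 0.40 (adjusted p = 0.00859) and 2.83 ± 0.37 (adjusted p = 0.000401). The calls of Actb and Cfl1 at 48 h were lost, at 0.38 ± 0.15 (adjusted p = 0.0642) and 0.37 ± 0.15 (adjusted p = 0.0764). The pooled markers summed to 981 to 2757 CPM in injured far spots and 744 to 802 in uninjured ones, so the pooled markers differed more there than in the marker-poor spots.

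In the uninjured lobule 6 of the 10 genes were higher in portal than in central spots, where 12.3% of 12009 genes tested were called higher. Ezr differed most, with 5.22, 3.76 and 5.39 CPM in portal spots against 2.25, 2.21 and 2.76 CPM in central spots of sections 002, 003 and 004, a log2 difference of 0.98 ± 0.16 (adjusted p = 7.13e-05). Tmsb4x followed with 481, 566 and 529 CPM in portal spots against 394, 392 and 422 CPM in central spots of sections 002, 003 and 004 (0.38 ± 0.04, adjusted p = 1.24e-06). All 3 sections had the portal spots higher for both. Portal and central spots were the 25% of a section's spots at either end of a score of pericentral against periportal genes. Flna differed by 0.33 ± 0.08 (adjusted p = 0.00478), Tmsb10 by 0.31 ± 0.05 (adjusted p = 6.74e-05), Actg1 by 0.24 ± 0.03 (adjusted p = 5.01e-06) and Pfn1 by 0.12 ± 0.04 (adjusted p = 0.0250). The call of Pfn1 was lost without 0 h 003 (adjusted p = 0.428) and under total-count scaling, and that of Flna without 0 h 002 (adjusted p = 0.0603). Actb, Cfl1, Msn and Vim were at 0.05 ± 0.03 (adjusted p = 0.245), 0.05 ± 0.03 (adjusted p = 0.358), 0.07 ± 0.09 (adjusted p = 0.653) and 0.05 ± 0.09 (adjusted p = 0.744) and did not pass the test, the sign of Actb, Cfl1 and Vim turning negative under total-count scaling. The pooled markers summed to 677 to 752 CPM in portal and 750.1 to 817 CPM in central spots, while 3 of the lists for other cell types were higher on the portal side in all 3 sections. These were the mononuclear phagocyte list, 315 to 360.2 against 269 to 295 CPM, the leucocyte list, 208 to 233 against 180.1 to 201 CPM, and the cholangiocyte list, 212 to 267 against 174 to 214 CPM. The cholangiocyte list includes Cdh1 and Krt8, which hepatocytes also express, so its sum does not stand for cholangiocytes alone. The part of these lists in the differences, that of Ezr included, was not tested.

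Spot by spot, the 10 genes had pairwise correlations near 0 in uninjured liver and higher ones after injury. With each spot thinned to 5000 UMIs, the median Pearson r over the 45 pairs was 0.02 to 0.04 in the 3 uninjured sections, 0.14 and 0.26 at 24 h, 0.16 and 0.23 at 36 h and 0.28 to 0.30 at 48 h, over 1489 to 3343 spots a section. These are descriptions of spots that share a library. A gene with more UMIs can show a larger r, the counts were higher after injury, and the part of that in the difference was not tested. With 2000 UMIs per spot the medians were lower, 0.0781 to 0.178 over the injured sections. The closest pairs in the 8 injured sections were Tmsb4x with Actb, r = 0.28 to 0.53, Tmsb4x with Tmsb10, 0.21 to 0.58, and Tmsb4x with Actg1, 0.27 to 0.53. In uninjured sections the first of these was 0.11 to 0.16. Ezr, at 0.0145 to 0.115 UMIs per thinned spot on average over all sections, was too sparse for its weak correlations to be read. Against the marker lists, Tmsb4x in injured sections had r of 0.41 to 0.72 with the mononuclear phagocyte list, 0.23 to 0.69 with the mesenchymal list and -0.49 to -0.15 with the hepatocyte list, and Flna 0.17 to 0.37, 0.13 to 0.39 and -0.32 to -0.10. Tmsb4x was positive with the other lists as well. Its r was 0.37 to 0.68 for leucocytes, 0.26 to 0.55 for red cells and 0.19 to 0.46 for neutrophils. For cholangiocytes it was 0.10 to 0.39, for endothelia 0.12 to 0.30 and for mesothelia 0.05 to 0.15. These values do not single out a cell type.

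Neighbouring spots resembled each other more at 48 h than at 0 h, by the ranges of the sections, for every one of the 10 genes but Ezr. The r of a spot with the mean of its neighbours was -0.0119 to 0.0783 for Tmsb10 in uninjured sections and 0.453 to 0.509 at 48 h, and for Tmsb4x 0.190 to 0.337 and 0.472 to 0.650. Vim went from 0.00770 to 0.0639 to 0.339 to 0.500 and Actg1 from 0.0212 to 0.0550 to 0.346 to 0.397, its 24 h sections standing at 0.352 to 0.515. These values depend on the number of UMIs, as the pair correlations do. For Ezr the ranges overlapped, 0.00500 to 0.0478 and -0.00620 to 0.188.

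**Figure D4:**
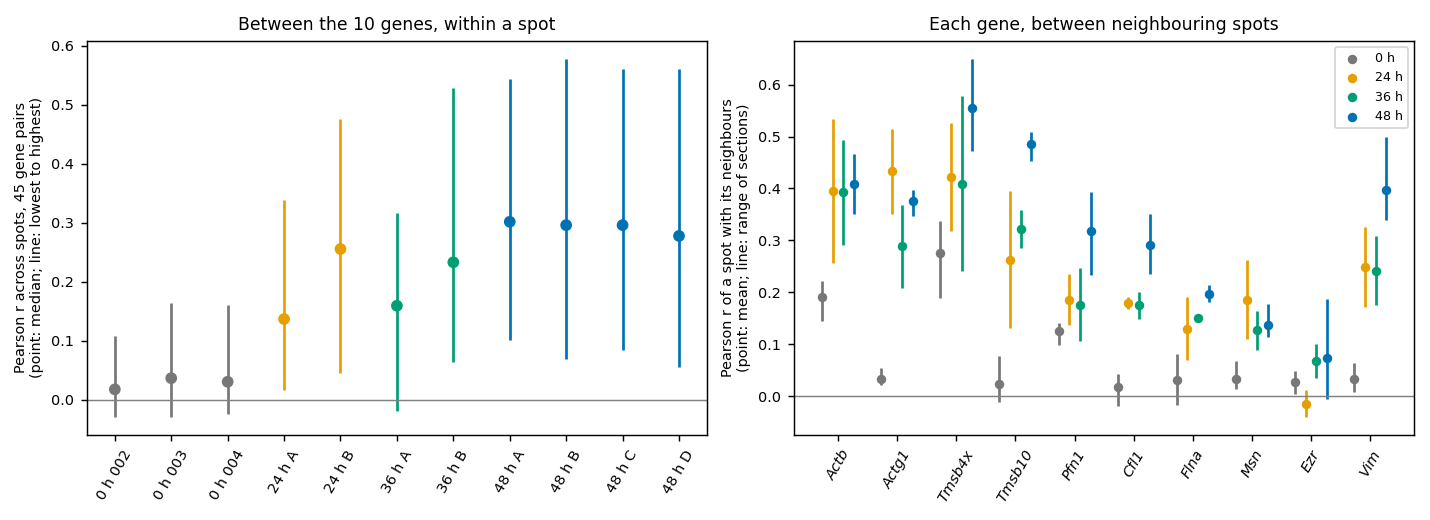
The left panel plots, for each section, the median and range of Pearson r over the 45 pairs of genes across spots thinned to 5000 UMIs, and the right panel the r of each gene between a spot and the mean of its neighbours, as mean and range of sections at each time. Median r is at most 0.04 at 0 h and at least 0.14 in injured sections.

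**Figure D5:**
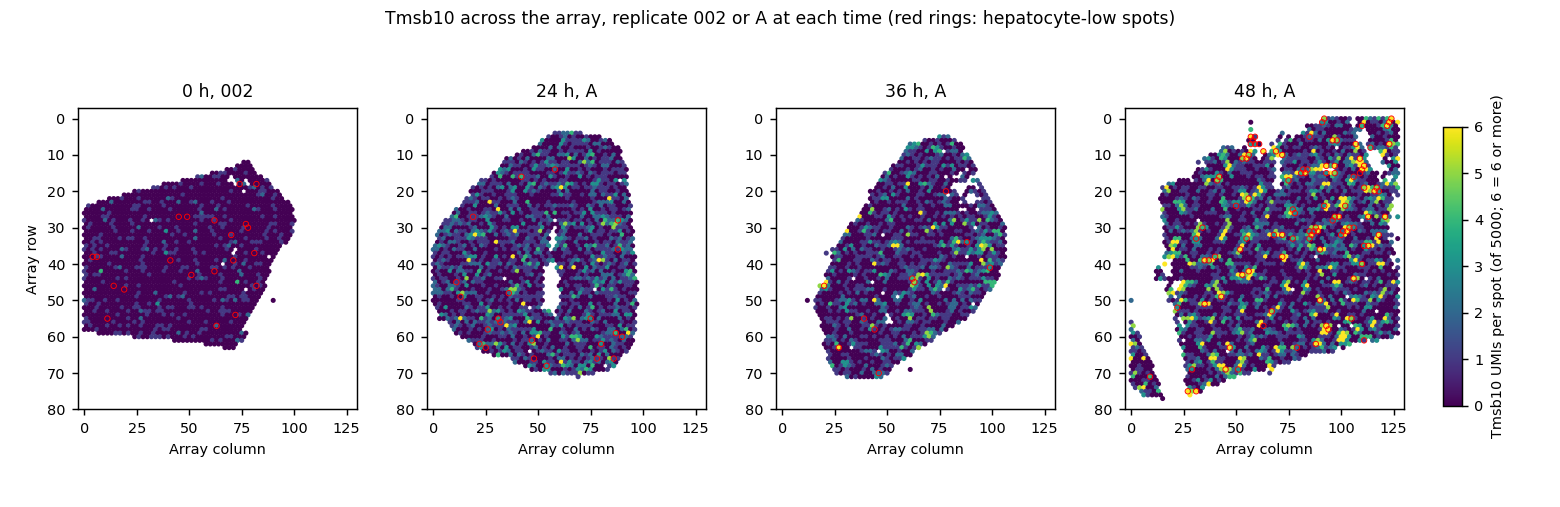
Spots are placed by array column and row in section 002 at 0 h and section A at 24, 36 and 48 h, and coloured by Tmsb10 UMIs of 5000 (6 stands for 6 or more), with hepatocyte-low spots ringed in red. In section A high spots are few and scattered at 24 h and gather in patches at 48 h. Over all sections of a time, neighbouring spots had r of 0.131 to 0.394 at 24 h, 0.285 to 0.359 at 36 h and 0.453 to 0.509 at 48 h.

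Among 7083 other genes with a mean of at least 10 CPM, those whose log2 CPM over the 11 sections was most like the mean of the 10 were Fxyd5, Pitpna, Nid1, Hcls1, Tagln, Mgat5, Gnb1 and Col4a1, with Pearson r of 0.973 to 0.986. The sections fall into uninjured and injured ones, and r includes that split. Across spots of the 8 injured sections, among 6256 genes, the closest to the mean of the 10 were Ftl1, Lyz2, Fth1, Lgals3, Ctsb, Psap, Rplp1 and Rpl41, with a mean r of 0.520 to 0.674. Lyz2 is among the leucocyte and mononuclear phagocyte markers used here, and Ftl1 and Fth1 encode the ferritin chains.

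The wider actin pathway was followed through 64 further genes, of which 62 were tested. Those called higher numbered 26, 24 and 31 at 24, 36 and 48 h, and those called lower 2, 2 and 4, against 41.7%, 29.2% and 44.2% of all genes tested in either direction. For higher calls alone the share of all genes tested is the 23.1%, 16.8% and 23.3% given above. The list's median log2 fold change was 0.21, 0.30 and 0.36. Of the 10 myosins and tropomyosins, which pull on and stabilise filaments, 7 were higher at 24 h, 6 at 36 h and 7 at 48 h, where 1 was lower. Of the 8 bundling and crosslinking genes, 5, 5 and 4 were higher. Of the 11 nucleation genes, mostly subunits of the Arp2/3 complex that starts branched filaments, 2, 2 and 4 were higher and none lower. Of the 7 adhesion and membrane linkage genes 2, 1 and 1 were higher and 1, 1 and 2 lower. Of the 10 turnover and capping genes 3, 3 and 5 were higher and 1, 1 and 0 lower. Among the 3 genes of the SRF axis, named here after their values were seen, Mkl1, a coactivator that actin monomers hold in the cytoplasm, was higher at each time (1.15 ± 0.14, adjusted p = 0.000171, 0.54 ± 0.14, adjusted p = 0.0182 and 0.75 ± 0.12, adjusted p = 0.000686), and Srf itself was lower at 48 h (-0.38 ± 0.11, adjusted p = 0.0217), a call lost under total-count scaling. The nucleation genes called at every time, also named after the fact, were Arpc1b (1.19 ± 0.16, adjusted p = 0.000331, 0.94 ± 0.16, adjusted p = 0.00271 and 1.35 ± 0.14, adjusted p = 7.08e-05) and Cttn (0.77 ± 0.13, adjusted p = 0.000889, 0.52 ± 0.13, adjusted p = 0.0131 and 0.54 ± 0.11, adjusted p = 0.00246).

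The largest rise in the list at each time was that of Acta2, smooth muscle actin and itself a mesenchymal marker, at 2.51 ± 0.496 CPM at 0 h (SD, n = 3) and 50.2 ± 10.1 at 24 h (n = 2), with log2 fold changes of 4.32 ± 0.45 (adjusted p = 9.83e-05), 4.26 ± 0.45 (adjusted p = 0.000433) and 4.60 ± 0.43 (adjusted p = 5.09e-05). Capg, which caps filament ends in macrophages and other moving cells, followed with 2.39 ± 0.36 (adjusted p = 0.000632), 3.19 ± 0.36 (adjusted p = 0.000522) and 4.08 ± 0.34 (adjusted p = 2.95e-05). Tagln2, a small actin bundler, rose by 2.02 ± 0.22 (adjusted p = 9.06e-05), 1.73 ± 0.22 (adjusted p = 0.000651) and 2.17 ± 0.20 (adjusted p = 3.55e-05). Rdx, radixin, the main ERM protein of hepatocytes and of the bile canaliculus, was the gene called lower at every time, at -0.77 ± 0.15 (adjusted p = 0.00219), -0.65 ± 0.15 (adjusted p = 0.00908) and -0.61 ± 0.12 (adjusted p = 0.00234), opposite to its relatives Msn and Ezr. Relative to total counts its value was -0.44 at 24 h, still called, and -0.21 and -0.08 at 36 h and 48 h, not called. Gsn, gelsolin, was lower at 24 h (-1.24 ± 0.39, adjusted p = 0.0278), Cfl2 at 36 h (-0.34 ± 0.10, adjusted p = 0.0225), and Myo1e and Parva at 48 h (-0.55 ± 0.13, adjusted p = 0.00508, and -0.24 ± 0.07, adjusted p = 0.0241). Under total-count scaling Gsn and Myo1e were at -0.91 and -0.03 and not called, Cfl2 was at 0.09 and not called, and Parva was called higher at 0.29 (adjusted p = 0.00593). By that scaling 39, 48 and 58 of the 62 genes were called higher and 1, 0 and 0 lower.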

How the data were processed

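Visium 3′ libraries of mouse liver sections were aligned by the authors to mm10 with Space Ranger 1.0.0 and, per the labels' processing notes, handled with Seurat 4.1.1, and the deposited matrices hold raw UMI counts per gene and spot. Spots under tissue were kept when they had 800 or more genes and no more than 20% mitochondrial UMIs, and their counts were summed per section. Sections were grouped by the labelled time, and edgeR 4.0.16 (quasi-likelihood test, TMM, Benjamini-Hochberg adjustment over all genes tested, called at an adjusted p under 0.05) was fitted in R 4.3.3 over all 11 sections, after tests on simulated data, with n as sections. Errors after ± are SE of log2 values and SD of CPM. Spot classes, portal and central spots were fitted as sums with the section as a block. Alternatives were total-count scaling, no low-count filter, all tissue spots, only the groups compared, DESeq2 1.42.0, other spot limits and each section left out. All 10 genes were named, with the 3 highest and 3 lowest called genes of the pathway list at no less than 10 CPM and the 8 genes most alike. Members and lists were chosen with earlier results of these data known. A group of the pathway list is not reported here on its own.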

Additional observations from a re-analysis of the deposited data

Results flagged for a closer look

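Section 48 h C stood apart from the other 3 sections at 48 h in 2 of the 10 genes, Cfl1 at 416 CPM and Ezr at 17.6 CPM, each the highest value with a wide gap below it. The gap was judged by Dixon's 95% critical value for 4 samples, which by its definition chance alone passes in about 1 of 20 groups. Section 48 h C was also the highest at 48 h for Tmsb4x, Pfn1, Flna, Msn and Vim, but not for Actb, Actg1 or Tmsb10. Its pooled non-hepatocyte markers summed to 3195 CPM, against 1693 to 3040 CPM in the other sections at 48 h. It held 167 hepatocyte-low spots, against 28 to 106. The part of these in its levels was not tested.

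The difference between hepatocyte-low and far spots was larger at 48 h than at 24 h for 7 genes in the test of the interaction (0.814% of all genes tested were called higher). On the log2 scale the excess was 0.57 for Actb, 0.46 for Actg1, 0.72 for Tmsb4x, 0.66 for Tmsb10, 0.86 for Pfn1, 0.53 for Cfl1 and 0.88 for Flna. The 24 h value of each rests on section 24 h A alone, with 22 hepatocyte-low spots, so that the spread at 24 h was not measured and was taken from the other sections. For ring 1 against far spots, with 2 sections at 24 h and 4 at 48 h, 1 gene differed between the times, Tmsb10 with an excess of 0.46 (0.678% of all genes tested were called higher). That test was added after seeing the data.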

How the results depend on the processing

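The counts of members called against 0 h were 6 to 8 at 24 h, 5 to 10 at 36 h and 7 to 10 at 48 h when single sections were left out. At 36 h leaving out section A gave 10, and leaving out section B gave 5, among them Pfn1 as lower. From 24 h to 36 h it was 0 to 2, from 36 h to 48 h 0 to 4, and from 24 h to 48 h 0 to 6. All 10 members kept their calls in hepatocyte-low and ring 1 spots each time. With only the groups compared in the fit, 0 members were called from 24 h to 36 h and 6 from 24 h to 48 h. In marker-poor spots at 48 h the count was 5 under total-count scaling. With the 25th percentile as limit 48 h rests on section A alone, so no count is given.

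The letters A and B are shared by the injured times, but same-lettered sections did not deviate together at every pair of times (r = 0.46 between 24 h and 36 h, -0.17 for both letters between 24 h and 48 h), and nothing in the labels pairs them. With the letter as a replicate block 0 members were called in each of the 3 comparisons between injured times. The same 8 injured sections without the block also gave 0. Sections at 0 h share no letters, so those comparisons could not be blocked.

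The sign turned for Pfn1 at 24 h under total-count scaling (0.10), for Tmsb4x (-0.33) and Pfn1 (-0.78) when 36 h B was left out (0.95 and 0.80 when 36 h A was), and between portal and central spots for Actb (-0.0204), Cfl1 (-0.0182) and Vim (-0.0112) under total-count scaling and for Msn (-0.0327) and Vim (-0.0649) without 0 h 003 (0.163 and 0.148 without 0 h 004). The cause was not tested. Of the single-gene values 519 stayed on their side of the threshold with 1 section left out, 36 lost a call and 5 gained one. For the comparisons over time these include refits without a section of neither group compared. Such a refit changes a value only through the shared fit, so the 519 overstates stability. Under other settings these numbers were 265, 14 and 5. Ezr, with at most 0.115 UMIs per thinned spot, is where depth limits the spot correlations.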
